A study of Mus musculus with 8 samples.

Results

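Cytosolic ribosomal protein genes encode the proteins that, with ribosomal RNA, build the large and small subunits of the ribosome in the cytoplasm. They were taken from the table of counts by symbol: names beginning Rpl or Rps with a number, plus Rplp0, Rplp1, Rplp2 and Rpsa, without symbols holding -ps and without the Rps6k kinases. Of 105 rows with such names, 6 pseudogene rows and 10 kinase rows were left out, which gave 89 genes of the 24982 in the table. Of these 89, 54 are named for the large subunit and 35 for the small subunit, and by role 74 are core ribosomal proteins, 3 form the stalk, 11 are paralogs of core proteins, and 1, Rps19bp1, only shares the name. Rps19bp1 encodes a binding partner of the Rps19 protein and is not itself a ribosomal protein.

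RNA was sequenced from fibroblasts grown in culture from mouse tail tendon, of the C57Bl/6 strain. The ScxKO cells, libraries 2, 3, 4 and 5, carry the Scx- genotype, meaning that the tendon transcription factor scleraxis, of the basic helix-loop-helix family, is deleted. The ScxWT cells, libraries 2, 3, 5 and 6, carry the Scx+ genotype. The labels list 4HT treatment for all 8 libraries, so both groups share it. The Cre driver, the deleted part of the gene and whether animals were pooled are not given in the labels. No label ties a library to its own animal or culture, so the p-values cover the variation among these 8 libraries and that variation may be technical. The comparison asks which transcripts differ when scleraxis is missing.

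Ribosomal proteins are made in balanced amounts, and their mRNAs are among the most abundant of growing cells. In mammals most of these mRNAs begin with a run of pyrimidines, the 5′ terminal oligopyrimidine motif, through which mTORC1 and the RNA-binding protein Larp1 set how actively they are translated. Free ribosomal proteins that are not built into subunits are usually degraded, and Rpl5, Rpl11 and Rpl23 can bind the p53 inhibitor Mdm2. In tendon, ribosomes supply the synthesis of collagen and other matrix proteins.

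The bases around the annotated transcription start were searched for such a run. They are given for 3 genes that rose and have a run, for the only gene that fell, which has a run too, and for 2 genes that rose with no such run. The sequences come from RefSeq on GRCm38.p6 and run 5′ to 3′ on the gene's own strand, with 10 bases before the start and 20 from it. Capitals mark the pyrimidine run, searched as a C within 5 bases of the start followed by at least 4 further bases that are C or T.
Rpl35: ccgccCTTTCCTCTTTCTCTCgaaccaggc
Rpl38: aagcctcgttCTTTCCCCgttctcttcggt
Rpl28: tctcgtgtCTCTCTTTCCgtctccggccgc
Rpl22l1: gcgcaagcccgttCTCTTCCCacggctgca
Rps28: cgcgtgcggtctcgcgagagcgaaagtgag
Rpl23: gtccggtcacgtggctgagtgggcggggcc
The windows are Rpl35 at chr2:39005112-39005141 on the minus strand, Rpl38 at chr11:114668570-114668599 on the plus strand, Rpl28 at chr7:4792955-4792984 on the plus strand, Rpl22l1 at chr3:28805498-28805527 on the plus strand, Rps28 at chr17:33824543-33824572 on the minus strand, and Rpl23 at chr11:97782420-97782449 on the minus strand. Each window spans the end of the promoter and the first bases of the first exon. A RefSeq promoter was matched for 63 of the 84 members that were tested and for 10286 of 13125 tested genes. A pyrimidine run at the start was found in 30 of these 63 members (47.6%), against 24.1% of all matched genes. The 30 members with a run had a median log2 change of 0.10 with 5 called higher. The 33 without a run had a median of 0.12 with 8 called higher. Over all tested genes 14.1% were called higher, and a difference between members with and without a run was not tested. A run is a match of letters at an annotated start, which may lie some bases from the start used in these cells.

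Upstream of the start, the motif CGGAAG, the core bound by ETS factors, was searched on both strands of the 300-base RefSeq promoter, 250 bases before the start and 50 after. It was present in 66.7% of the matched members, 42 of 63, against 34.6% of all matched genes. The SP1 box GGGCGG was present in 63.5% of members and 69.7% of all, the YY1 element ATGGCGGC in 6.35% and 5.61%, the TATA box TATAAA in 12.7% and 8.63%, and the E-box CANNTG, the class of site that scleraxis and its partners bind, in 52.4% and 66.6%. The 100 bases before the start are shown for Rpl38, which rose, and for Rpl22l1, which fell. They are examples with and without the ETS core within those 100 bases only, not the whole promoter. Matches to these motifs, other than the E-box, are in capitals.
Rpl38: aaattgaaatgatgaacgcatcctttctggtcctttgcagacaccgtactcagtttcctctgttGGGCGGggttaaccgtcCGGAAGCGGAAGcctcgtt
Rpl22l1: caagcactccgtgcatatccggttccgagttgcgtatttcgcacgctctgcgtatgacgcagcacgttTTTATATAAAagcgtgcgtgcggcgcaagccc
The Rpl38 stretch, at chr11:114668480-114668579 on the plus strand, holds a GGGCGG and an adjoining pair of CGGAAG. The Rpl22l1 stretch, at chr3:28805408-28805507 on the plus strand, holds overlapping TATAAA matches on both strands and no CGGAAG or GGGCGG. The same stretch of Rpl23, Rpl24 and Rpl28, which rose, also held no CGGAAG or GGGCGG.

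Gene counts per library lay between 17343228 and 25180790. Scx, the deleted gene, averaged 0.112 ± 0.0461 CPM (counts scaled to library size with TMM factors, the unit CPM) in ScxKO and 7.92 ± 1.52 CPM in ScxWT (SD, n = 4 each), and the log2 change was -6.08 ± 0.27 (SE, adjusted p = 1.13e-09, edgeR quasi-likelihood test, Benjamini-Hochberg). Bop1, a ribosome assembly factor whose gene contains the Scx gene, averaged 83 ± 3.23 CPM in ScxKO and 81.4 ± 5.87 CPM in ScxWT, a log2 change of 0.03. Of 10 tested tenocyte markers, which include the deleted Scx itself, 9 were called lower and none higher. Of 5 tested fibroblast markers 2 were called higher and 1 lower, and both macrophage markers that could be tested, of 6, were called higher. Of endothelial markers 1 of 3 tested was higher and 1 lower, and of muscle markers 1 of 2 and of Schwann cell markers 1 of 4 was lower. No keratinocyte marker had enough counts to be tested. Over all tested genes 14.1% were called higher and 14.6% lower, and a shift in cell types was not tested. The macrophage markers summed to 7.20 to 9.06 CPM in ScxKO and 4.33 to 5.89 CPM in ScxWT, with Ptprc near 0 in both groups, and their part in the ribosomal results was not tested. ScxWT 5 stood apart on the second principal component, which held 12.9% of the variance. Its median ribosomal level lay near that of ScxWT 2. Its ribosomal values followed transcript GC content in the opposite direction to ScxWT 2 and ScxWT 3.

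The ribosomal protein genes had slightly higher fitted levels in ScxKO cells, and few differed beyond the spread between libraries. Of the 84 members that passed the filter on low counts, 80 had a fitted log2 change above 0 (95.2%), against 48.8% of all 13125 tested genes, 6401. The median log2 change of ScxKO over ScxWT was 0.11, with quartiles of 0.08 and 0.15, or 7.94% higher, against -0.01 over all tested genes, with quartiles of -0.14 and 0.11. The test called 16 members higher in ScxKO (19.05%), where 14.1% of all tested genes were called higher, and 1 member lower (1.19%), where 14.6% of all tested genes were called lower. The share called higher is thus near that of all genes, and the share called in either direction, 17 members, is below the 28.7% of all tested genes. At an unadjusted p under 0.05, 40 members were higher and 2 lower. The changes called higher ran from 0.11 to 0.22, whereas the called genes of the whole table had a median absolute log2 change of 0.31. The members share libraries and vary together, so their common direction is not independent evidence from each gene.

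**Figure D1:**
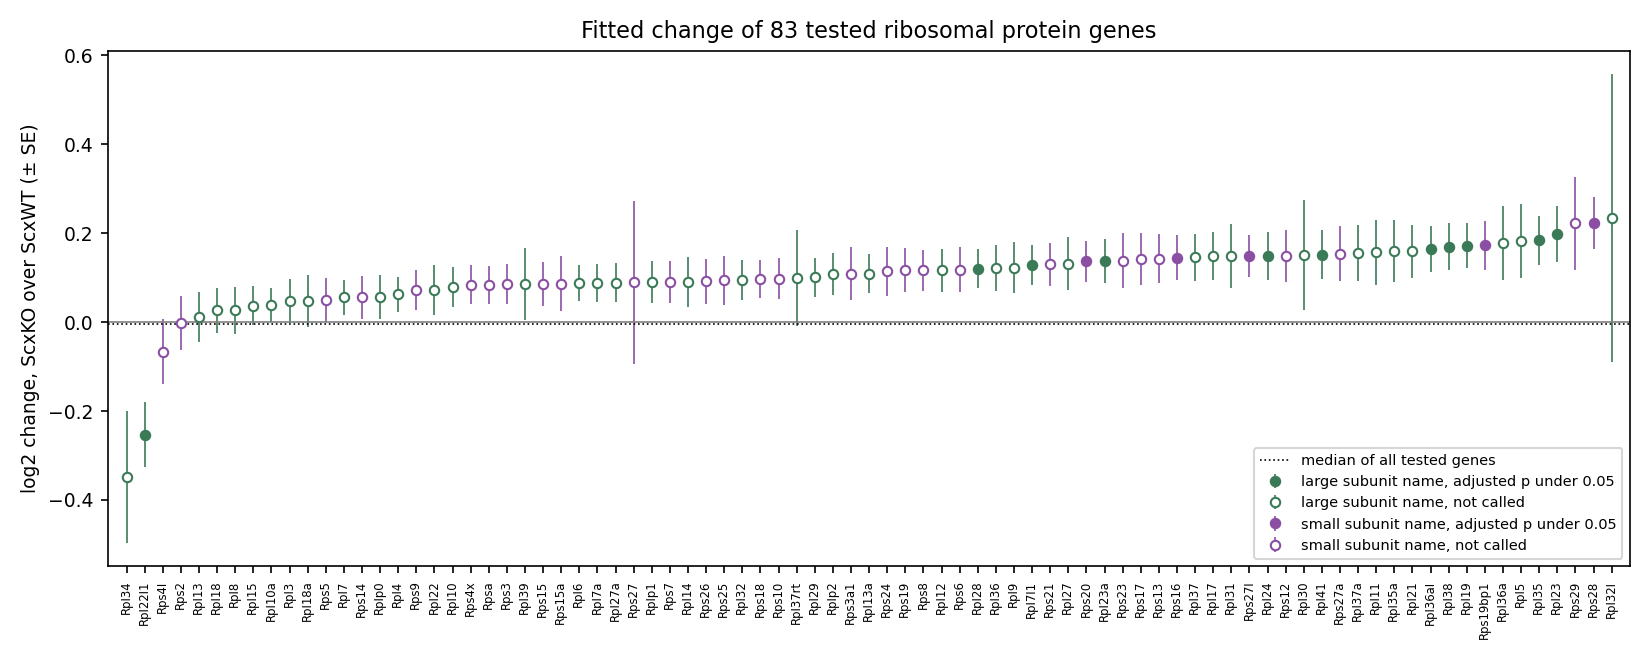
Fitted log2 change of ScxKO over ScxWT with its standard error (y axis) for 83 of the 84 tested ribosomal protein genes (x axis), ordered by value. Filled points passed an adjusted p of 0.05, 15 above 0 and 1 below, green is large subunit names, purple small, and the dotted line is the median of all tested genes at -0.01.

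The 50 tested genes named for the large subunit had a median log2 change of 0.11, with 10 called higher and 1 lower and a range of -0.35 to 0.23. The 34 named for the small subunit had a median of 0.11, with 6 called higher, none lower and a range of -0.07 to 0.22. Over all tested genes 14.1% were called higher and 14.6% lower. The median standard error of 0.05 shows the precision behind each of these changes. In 79 of the 84 members the groups overlapped. In 5 all ScxKO libraries lay above all ScxWT libraries, where 14.8% of all tested genes did so, and in none did they lie below, where 14.3% of all tested genes did. Among them were Rpl19, Rpl36al, Rps19bp1 and Rpl13a, the last of which was not called by the test (log2 change 0.11, adjusted p = 0.0730, edgeR quasi-likelihood test, Benjamini-Hochberg).

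The share of all gene counts that fell in the 89 members gives the same picture per library. It was 2.25%, 2.21%, 2.41% and 2.20% in ScxKO 2, 3, 4 and 5, against 2.08%, 2.27%, 2.06% and 2.11% in ScxWT 2, 3, 5 and 6. ScxKO 4 was the highest and ScxWT 3 lay inside the ScxKO range, so the groups overlap. The means were 2.27% ± 0.0947 in ScxKO and 2.13% ± 0.0939 in ScxWT (SD, n = 4 each), a difference of 0.134 percentage points, which is 0.0879 without ScxKO 4 and 0.180 without ScxWT 3. The mitochondrial ribosomal proteins, which build a separate ribosome in mitochondria, took 0.317% to 0.334% of the counts in ScxKO and 0.291% to 0.309% in ScxWT, with no overlap. The share of ambiguous reads, which the counter could not place in 1 gene, averaged 0.549% ± 0.0126 in ScxKO and 0.496% ± 0.00696 in ScxWT and also did not overlap, and its part in the ribosomal results was not tested.

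**Figure D2:**
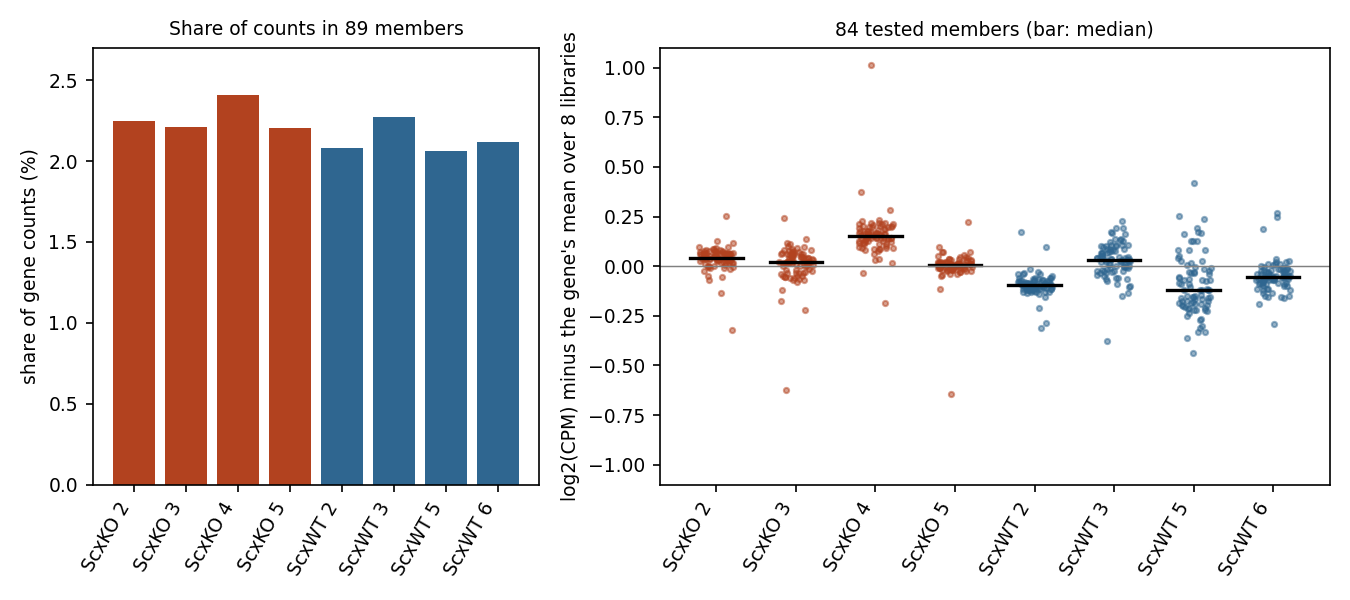
Left, the share of gene counts (percent) in the 89 ribosomal protein genes for each library, between 2.06% and 2.41%. Right, each of the 84 tested members as log2(CPM) minus its own mean over the 8 libraries, with bars at the median: ScxKO 4 sits highest at 0.15, and ScxWT 3, at 0.03, lies above the other ScxWT libraries.

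The libraries moved the members together. The median deviation of the members from their own mean log2 CPM was 0.04, 0.02, 0.15 and 0.01 in ScxKO 2, 3, 4 and 5, and -0.09, 0.03, -0.12 and -0.05 in ScxWT 2, 3, 5 and 6. ScxKO 4 was thus the only library far above the rest, and ScxWT 5 the lowest with ScxWT 2 next to it. In ScxWT 5 the spread among members was wide and followed base composition. Across the 84 members the deviation correlated with transcript GC content at r = 0.49 (rho = 0.54) in ScxWT 5, at r = -0.51 (rho = -0.59) in ScxWT 3 and at r = -0.34 (rho = -0.52) in ScxKO 3, as a description of members that share a library. The fitted log2 change itself correlated with GC content at r = -0.10 (rho = -0.24). Members split by GC content into low, middle and high groups of 28 each had median log2 changes of 0.13, 0.12 and 0.09. Of the 28 in each group 4, 6 and 6 were called higher, where 14.1% of all tested genes were. A fit corrected for GC content and transcript length together called 13 members higher (15.5%), where it called 21.9% of all genes higher. It called 2 members lower, where it called 2234 of all 13125 genes lower. Of the 13 members called higher in that fit, 7 were among the 16. The median log2 change of the members in that fit was 0.06, against 0.01 over all genes, and the parts of GC content and of length were not tested apart.

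The counts of called members rest on single libraries more than the median does. Without ScxKO 4 the test called 1 member higher, without ScxWT 2 it called 2, without ScxWT 6 it called 4, without ScxKO 2 it called 7 and without ScxKO 5 it called 10. Without ScxWT 3 it called 43 (51.2% against 13.8%) and without ScxWT 5 it called 27 (32.1% against 18.3%). With ScxWT 5 and ScxKO 4 both left out, a choice made after seeing the data, 5 were higher (5.95% against 16.3%). In that fit 1 member was lower, where 2053 of all 13134 genes were. Upper-quartile scaling, in place of TMM, gave 3 higher (3.57% against 11.8%) and 1 lower, where 2299 of all 13125 genes were lower. The median log2 change lay between 0.06 and 0.15 under every alternative fit, with 73 or more of the fitted members above 0.

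**Figure D3:**
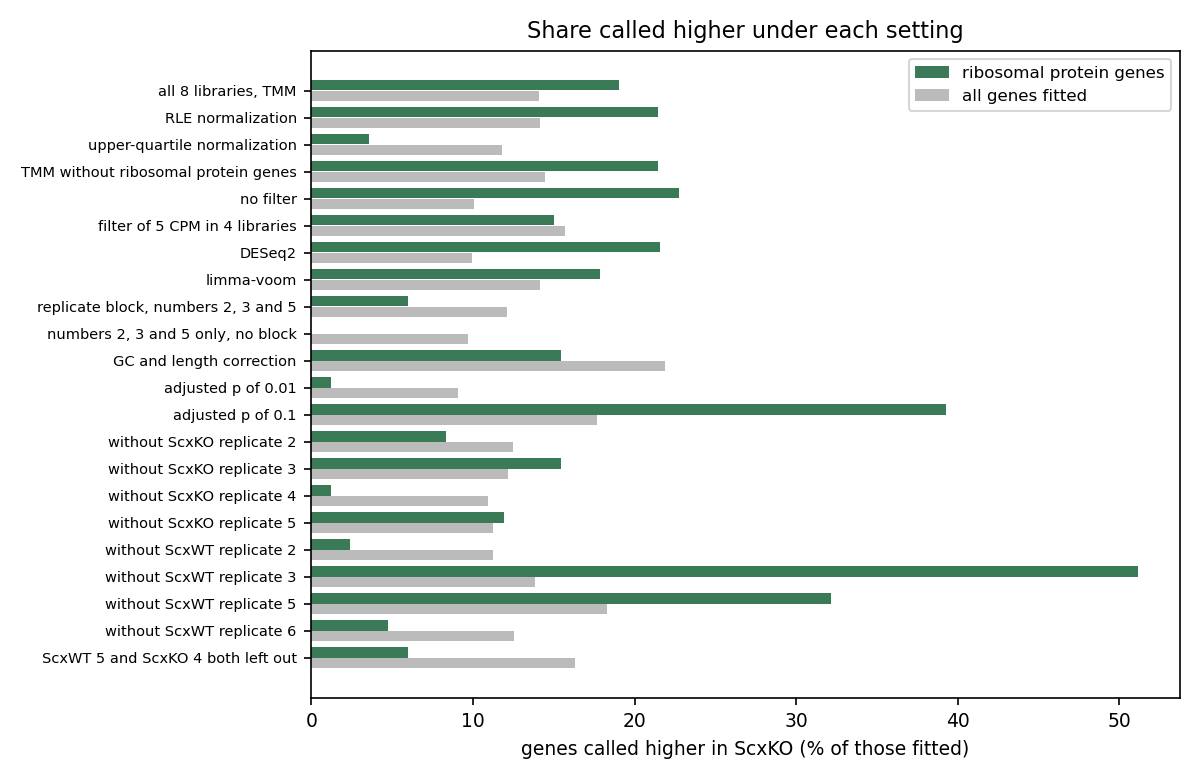
Percent of fitted genes called higher in ScxKO (x axis) under each alternative processing or with 1 library left out (y axis), for ribosomal protein genes (green) and for all genes fitted (grey). The share of ribosomal protein genes runs from 0% to 51.2%, while the grey bars run from 9.10% to 21.9%.

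Among small subunit proteins, Rps28, a component of the small subunit on chromosome 17 (chr17:33819027-33824562, minus strand of GRCm38), had the largest called increase. It was at 90.8, 85.7, 97.2 and 85.7 CPM in ScxKO 2, 3, 4 and 5, against 75.9, 86.0, 73.4 and 72.7 CPM in ScxWT 2, 3, 5 and 6. Only ScxWT 3 reached the ScxKO values. The log2 change was 0.22 ± 0.06 (SE, adjusted p = 0.00918, edgeR quasi-likelihood test, Benjamini-Hochberg), and it was called in 20 of the 21 alternatives. Rps16, which contacts the transfer RNA at the peptidyl site, was at 209, 198, 221 and 196 CPM in ScxKO and 187, 201, 175 and 183 CPM in ScxWT (log2 change 0.14). Rps20, of the head of the small subunit, averaged 411 ± 20.3 CPM in ScxKO and 374 ± 16.8 CPM in ScxWT. For Rps16 and Rps20 ScxWT 3 lay inside the ScxKO range.

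Among large subunit proteins, the core genes called higher with the largest changes were Rpl23, Rpl35, Rpl19 and Rpl38. Rpl19, which takes part in a bridge between the subunits, was at 285, 293, 314 and 288 CPM in ScxKO and 256, 284, 243 and 264 CPM in ScxWT. The groups did not overlap, though ScxKO 2 and ScxWT 3 nearly met. Its log2 change was 0.17 ± 0.05 (SE, adjusted p = 0.0157, edgeR quasi-likelihood test, Benjamini-Hochberg), called in 16 of 21 alternatives. Rpl35, near the exit of the peptide tunnel, was at 130.3, 125, 144 and 130.4 CPM in ScxKO and 117, 128, 109 and 113 CPM in ScxWT. Here ScxWT 3 lay above ScxKO 3, and the log2 change was 0.18 ± 0.05 (SE, adjusted p = 0.0195, edgeR quasi-likelihood test, Benjamini-Hochberg). Rpl23, at the interface between the subunits, was at 309, 317, 340.3 and 303 CPM in ScxKO and 271, 317, 245 and 273 CPM in ScxWT. Its ScxWT values had the widest spread of these 4 genes, and the log2 change was 0.20 ± 0.06 (SE, adjusted p = 0.0276, edgeR quasi-likelihood test, Benjamini-Hochberg).

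Rpl38, which in mice is needed for translation of a group of Hox mRNAs, was at 109.7, 110.5, 122 and 108 CPM in ScxKO and 98.6, 109, 94.5 and 97.9 CPM in ScxWT (log2 change 0.17). Only ScxWT 3 reached the ScxKO values. Rpl23a, at the tunnel exit, averaged 195 ± 7.79 CPM in ScxKO and 177 ± 11.9 CPM in ScxWT (log2 change 0.14). Rpl24 averaged 171 ± 4.51 CPM in ScxKO and 154 ± 13.2 CPM in ScxWT, and Rpl41, a very short basic protein, averaged 276 ± 21.3 CPM in ScxKO and 249 ± 13.9 CPM in ScxWT (log2 change 0.15 for each). Rpl23a, Rpl24 and Rpl41 were each called in 8 of 21 alternatives. Rpl28 averaged 267 ± 14.3 CPM in ScxKO and 246 ± 6.32 CPM in ScxWT (log2 change 0.12, adjusted p = 0.0498, edgeR quasi-likelihood test, Benjamini-Hochberg), just inside the threshold and called in 7 of 21 alternatives. In each of these 5 genes at least 1 ScxWT library lay inside the ScxKO range.

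Rps19bp1 was at 32.0, 29.7, 32.9 and 31.1 CPM in ScxKO and 27.9, 26.6, 28.9 and 27.9 CPM in ScxWT, with no overlap. Its log2 change was 0.17 ± 0.05 (SE, adjusted p = 0.0265, edgeR quasi-likelihood test, Benjamini-Hochberg). It is counted among the 16 by its name alone.

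**Figure D4:**
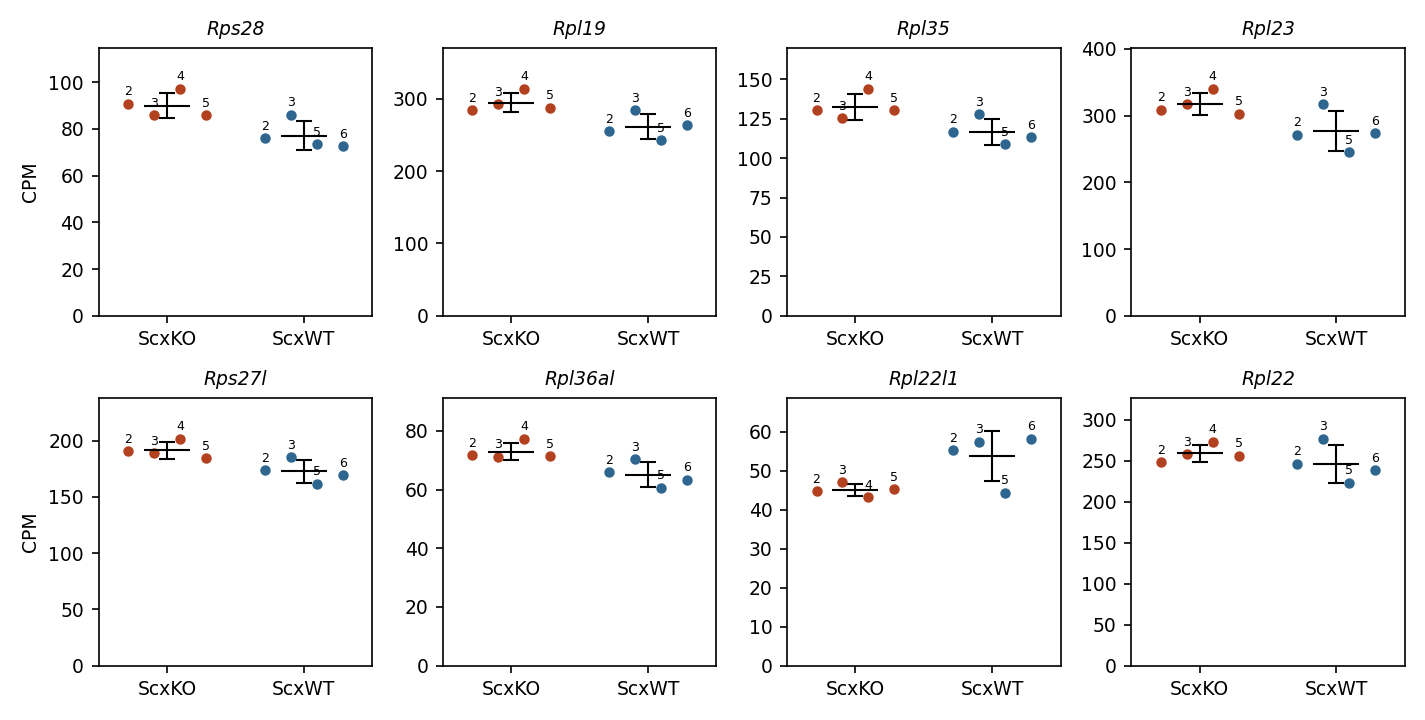
CPM (y axis, from 0) of 8 ribosomal protein genes in each library, numbered as in the labels, ScxKO red and ScxWT blue, with the group mean and SD in black. ScxWT 3 lies above the other ScxWT libraries for 7 of the 8 genes, and for Rpl22l1 3 of the 4 ScxWT libraries sit above all ScxKO libraries.

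The stalk proteins Rplp0, Rplp1 and Rplp2, which recruit elongation factors to the large subunit, did not pass the test. Rplp0 was at 969, 876, 989.9 and 904 CPM in ScxKO and 850.3, 878, 969.5 and 897 CPM in ScxWT, with full overlap and a log2 change of 0.06 ± 0.05 (SE, adjusted p = 0.433, edgeR quasi-likelihood test, Benjamini-Hochberg). Rplp1 was at 473, 441, 504 and 447 CPM in ScxKO and 417, 451, 447 and 437 CPM in ScxWT, and Rplp2 at 263, 254, 277 and 251 CPM in ScxKO and 231, 254, 231 and 253 CPM in ScxWT. Their log2 changes were 0.09 and 0.11, and in both genes the groups overlapped. Per length, on the RPKM scale with 1 GENCODE transcript per gene, Rplp1 had the highest level of all tested members, 934 ± 57.7 RPKM in ScxKO and 878 ± 30.5 in ScxWT. Rpl32 followed at 697 ± 32.5 in ScxKO and 653 ± 30.7 in ScxWT, and Rplp0 at 688 ± 39.3 in ScxKO and 662 ± 37.6 in ScxWT, and the levels of Rpl32 and Rplp0 do not differ beyond their spread. This order depends on the transcript picked for each gene. For Rps20, at 411 CPM in ScxKO, that transcript has 3706 bases, against a median of 756, which gave 111 RPKM. The GC content and length values used elsewhere come from the same transcripts.

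Of the Mdm2-binding proteins, Rpl23 rose, as given above. Rpl5, which carries the 5S ribosomal RNA with Rpl11, was at 213, 230.1, 242 and 211 CPM in ScxKO and 197, 234, 163 and 197 CPM in ScxWT. Rpl11 was at 232, 243, 272 and 232 CPM in ScxKO and 221, 252, 187 and 217 CPM in ScxWT. In both genes ScxWT 3 was among the ScxKO values and ScxWT 5 was the lowest. Their log2 changes of 0.18 and 0.16 were as large as those of called genes, but the spread was wider and neither passed (adjusted p = 0.121 and 0.129, edgeR quasi-likelihood test, Benjamini-Hochberg), though both did so without ScxWT 3 and Rpl5 with the GC and length correction.

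The members on the X chromosome were not called. Rpl10, a late-joining large subunit protein, was at 353, 361, 389 and 347 CPM in ScxKO and 329, 363, 335 and 346 CPM in ScxWT. Rps4x, of the small subunit, was at 494, 508, 528 and 487 CPM in ScxKO and 465, 508, 449.8 and 480.0 CPM in ScxWT. The groups overlapped in both, with a log2 change of 0.08 each. Rpl39, a small protein of the peptide tunnel, had a log2 change of 0.09 and Rpl36a, another large subunit protein, had 0.18. Rpl39 was at 82.9, 91.5, 94.9 and 86.3 CPM in ScxKO and 83.05, 97.0, 68.3 and 87.4 CPM in ScxWT, and without both ScxWT 5 and ScxKO 4 its change was -0.03. Rpl36a was at 149, 152, 167 and 147 CPM in ScxKO and 136, 164, 114 and 129 CPM in ScxWT. In both genes ScxWT 5 was the lowest of the 8 libraries.

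The only member called lower was Rpl22l1 (chr3:28805436-28807424, plus strand of GRCm38), a paralog of Rpl22 that can take its place in the large subunit, and whose mRNA Rpl22 represses in mice. It was at 44.8, 47.1, 43.3 and 45.3 CPM in ScxKO and 55.4, 57.5, 44.4 and 58.3 CPM in ScxWT. ScxWT 5 lay among the ScxKO libraries and the other 3 ScxWT libraries above them. The log2 change was -0.25 ± 0.07 (SE, adjusted p = 0.0158, edgeR quasi-likelihood test, Benjamini-Hochberg), called in 16 of 21 alternatives, with values between -0.33 and -0.19. Rpl22 itself was at 248, 258, 273 and 256 CPM in ScxKO and 247, 277, 223 and 238 CPM in ScxWT, with a log2 change of 0.07 (adjusted p = 0.366 in the same test, edgeR with Benjamini-Hochberg adjustment).

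Taken as a ratio within each library, which removes what the pair shares, Rpl22l1 over Rpl22 was -2.47, -2.46, -2.66 and -2.50 in ScxKO 2, 3, 4 and 5 (log2 of CPM), against -2.16, -2.27, -2.33 and -2.03 in ScxWT 2, 3, 5 and 6. All ScxKO libraries lay below all ScxWT libraries. The means were -2.52 ± 0.09 in ScxKO and -2.20 ± 0.13 in ScxWT (SD, n = 4 each), a difference of -0.32, and the paralog was 14.9% of the pair in ScxKO and 17.9% in ScxWT. The pairs were compared after their values had been seen, and no test was applied. Transcript GC content is not shared by this pair, at 40.6% for Rpl22l1, the lowest of the tested members, and 47.3% for Rpl22. Its part in the ratio was not tested. In the other 6 pairs of a paralog and its parent that were measured the groups overlapped. Of the genes in these pairs, Rps27 and Rpl32l had means of only 40.5 and 13.9 counts, so their ratios are uncertain. The changes in log2 ratio were 0.02 for Rps27l over Rps27, -0.02 for Rpl36al over Rpl36a, 0.07 for Rpl7l1 over Rpl7, -0.14 for Rps4l over Rps4x, -0.04 for Rpl37rt over Rpl37 and 0.05 for Rpl32l over Rpl32.

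Among the other paralogs 3 were called higher. Rps27l, a target of p53, was at 191, 189, 202 and 185 CPM in ScxKO and 174, 186, 162 and 169.6 CPM in ScxWT (log2 change 0.15, adjusted p = 0.0253, edgeR quasi-likelihood test, Benjamini-Hochberg). Rpl36al, an autosomal copy of Rpl36a, was at 71.7, 71.2, 77.4 and 71.5 CPM in ScxKO and 65.9, 70.4, 60.7 and 63.4 CPM in ScxWT (log2 change 0.16). The groups did not overlap for Rpl36al, and ScxWT 3 was just above ScxKO 5 for Rps27l. Rpl7l1, which takes part in assembly of the large subunit, averaged 121 ± 2.82 CPM in ScxKO and 111 ± 6.11 CPM in ScxWT (log2 change 0.13). Rps4l, at 54.3 ± 3.82 CPM in ScxKO and 56.8 ± 6.53 CPM in ScxWT, had a log2 change of -0.07 and became 0.02 without ScxWT 5. Rpl37rt averaged 15.4 ± 2.20 CPM in ScxKO and 14.3 ± 1.88 CPM in ScxWT, and Rpl32l, the lowest tested member, 0.734 ± 0.390 CPM in ScxKO and 0.604 ± 0.0584 CPM in ScxWT. Rpl32l had the widest error, a log2 change of 0.23 ± 0.32, with ScxKO 4 far above the others at 1.28 CPM.

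Of the 5 members that could not be tested, Rps27rt had 0 counts in all libraries, and the others had between 0 and 9 counts per library. Rpl26, a core protein that in most cells is as abundant as the others, had 2, 0, 2 and 1 counts in ScxKO and 0, 1, 0 and 1 in ScxWT. Rpl34, Rpl30 and Rps27 also had few counts, with means of 3.83, 3.71 and 1.98 CPM in ScxKO and 4.82, 3.34 and 1.83 CPM in ScxWT. Their levels per length, between 5.30 and 7.73 RPKM in either group, were the lowest after Rpl32l. Rpl34 had the largest negative change, -0.35 ± 0.15 (SE, adjusted p = 0.0928, edgeR quasi-likelihood test, Benjamini-Hochberg), with ScxKO 3 below all other libraries at 2.76 CPM. These genes have many near-identical copies in the mouse genome, and how the counter treated shared reads is not given in the labels, so their counts are uncertain. The pseudogene rows left out of the members were low: Rpl14-ps1 averaged 10.98 CPM in ScxKO and 10.7 CPM in ScxWT, Rps15a-ps6 averaged 7.15 CPM in ScxKO and 6.47 CPM in ScxWT, and none was called.

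The authors' deposited table gives another view of the same genes. It holds 87 of the 89 members, and its mean normalized count exceeded the mean of the deposited counts by 3.79 times at the median member (quartiles 2.97 and 4.95, 86 members), against 1.26 times over all genes. In the authors' deposited table the mean was over 2 times that of the counts in 81 of 86 members and in 6.45% of all genes. Members called higher were not exempt: the ratio was 8.29 for Rps28 and 6.05 for Rpl35, though 1.36 for Rps19bp1. The counts of called members are thus uncertain in level as well. For Rpl26 the authors' deposited table gives a mean of 2114 where the count table has a mean of 0.875, and for Rps27rt 13616 where it has 0. For Rpl34 the values are 2137 and 93, for Rpl30 1137 and 75 and for Rps27 199 and 40.5, the authors' deposited table first. The tables were thus made from different counts, and the direction of the authors' fold changes was read from their sign, which matched the fit in all 3765 genes called there.

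Of these members, 31 were higher in ScxKO at an adjusted p of 0.05 in the authors' deposited table (35.6%), where 15.1% of its 14511 genes were, and 3 were lower (3.45%), where 14.1% of its genes were. The median log2 change of members in the authors' deposited table was 0.08, against -0.00 over all its genes. By adjusted p, Rps20 came first in the authors' deposited table (log2 change 0.25, adjusted p = 6.35e-08), then Rpl23 (0.22) and Rpl5 (0.17), although other members had larger changes than Rpl5. The 3 lower members in the authors' deposited table were Rps27 at -2.27, Rpl22l1 at -0.14 and Rpl3 at -0.08. The fit of the counts gave 0.09, -0.25 and 0.05 for these 3, so the sign differed for Rps27 and Rpl3. Both sources called 13 members higher, 81.2% of the 16 and 41.9% of the 31, and the sign was shared by 79 of 84 members. Both come from the same 8 libraries, so they are not independent.

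**Figure D5:**
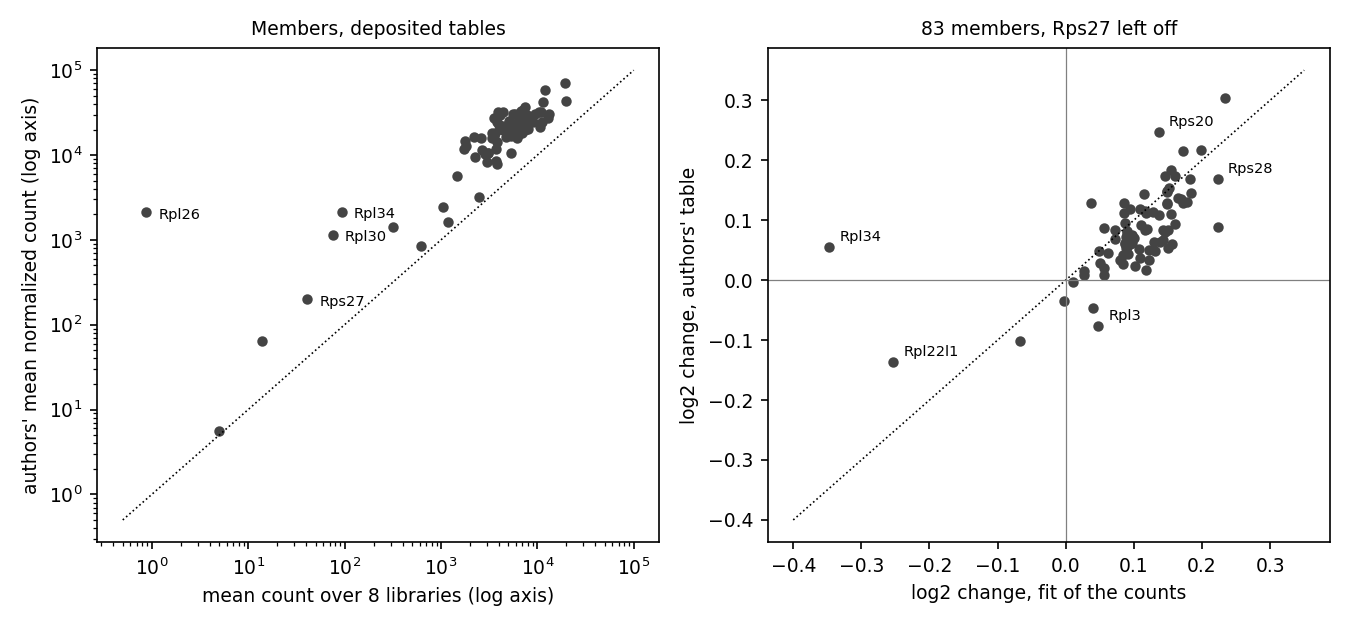
Left, the authors' mean normalized count against the mean count over 8 libraries for 86 members, both on log axes, with a dotted line of equality that most members exceed. Right, the log2 change of ScxKO over ScxWT in the authors' deposited table against the fit of the counts for 83 members, with Rps27 left off at -2.27 and Rpl22l1 low in both.

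Other genes of the ribosome and its regulation were read from lists. Fau, which encodes a ribosomal protein fused to a ubiquitin-like sequence, rose and averaged 207 ± 14.0 CPM in ScxKO and 188 ± 5.36 CPM in ScxWT (log2 change 0.14). Rack1, a small subunit scaffold protein, averaged 829.7 ± 30.4 CPM in ScxKO and 804 ± 40.7 CPM in ScxWT and was not called. Of 78 mitochondrial ribosomal protein genes 18 were higher and none lower, where 14.1% of all tested genes were higher and 14.6% lower, and their median log2 change was 0.10. Mrps6 led with 131 ± 9.76 CPM in ScxKO and 81.8 ± 3.53 CPM in ScxWT, a log2 change of 0.68, followed by Mrpl45 and Mrps18a at 0.36 each.

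Of 65 ribosome assembly genes 16 were higher and 2 lower (median 0.08), among them Utp15 at 0.30, Nhp2 at 0.28, Mrto4 at 0.26 and Pes1 at 0.22. Of 15 RNA polymerase I genes, which make ribosomal RNA, 2 were higher, Polr1d at 0.19 and Cd3eap at 0.17, and 1 lower, Ubtf at -0.12. Of 47 translation factors 7 were higher and 1 lower, Eif4a2 at -0.24, and of 8 chaperones of ribosomal proteins 2 were higher, Pdcd2 at 0.28 and Pdcd2l at 0.27. Of 7 tested regulators of ribosomal protein gene transcription none was higher and Sp1 was lower at -0.14. Each of these is a count to be read against 14.1% higher and 14.6% lower over all tested genes.

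Of 25 genes of the mTORC1 pathway and its mRNA-binding effectors, 8 were higher and none lower (median 0.08), to be read against the same 14.1% and 14.6%. Rragd, a Rag GTPase that recruits mTORC1 to lysosomes, was at 20.7, 22.6, 24.96 and 27.6 CPM in ScxKO and 9.31, 8.19, 8.01 and 7.73 CPM in ScxWT, with no overlap and a log2 change of 1.53. Tsc1, an inhibitor of mTORC1, changed by 0.40, Rragc by 0.32 and Lamtor1, of the complex that anchors the Rag GTPases, by 0.31. Of 15 p53 targets 8 were higher and 1 lower (median 0.14), where again 14.1% of all tested genes were higher and 14.6% lower. Mdm2, the inhibitor of p53 that Rpl5, Rpl11 and Rpl23 bind, averaged 299 ± 6.97 CPM in ScxKO and 241 ± 8.91 CPM in ScxWT, a log2 change of 0.31, and Gadd45a changed by 0.53. RNA was taken from whole cultures, so a shift in cell types and a change in RNA per cell cannot be told apart.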

How the data were processed

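RNA was sequenced from 8 libraries of cultured tail tendon fibroblasts, 4 ScxKO and 4 ScxWT, grouped by the titles. Total RNA was purified with DNase I and the miRNeasy Micro kit, per the labels' protocols. The submitters' processing notes name FastQC, STAR, DESeq2 and the mouse build mm10, with no roles or versions. The read counter, its annotation and its strand setting are not stated there or in the labels. The authors deposited whole-number counts per gene, not normalized, which fed every test here. Their deposited comparison table holds a mean normalized count (signal), a log2 fold change with its error and statistic (scores) and a p-value, per the file headers.

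The tests used edgeR 4.0.16 (R 4.3.3): filterByExpr (minimum count 10, total 15), TMM factors and a quasi-likelihood model of the group alone, Benjamini-Hochberg adjusted over all 13125 tested genes at 0.05. The standard error of a log2 change is its size over the root of the F statistic. The reads in no feature, 7.73% of counts in ScxKO and 8.30% in ScxWT, and ambiguous reads were left out. No pair of libraries agreed within counting noise. Simulated data at these depths recovered 70.1% of 1.25-fold and 96.9% of 2-fold changes, with 2.89% false calls, over 13040 genes.

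Named genes are the 12 largest called rises and falls, all tested paralog, stalk and name-match members, Rpl5, Rpl11 and Rpl23, X-linked members, the 3 highest and lowest levels per length, and up to 4 genes of each list. The members and lists were chosen with earlier results of these data known, and Rpl32l and Rpl37rt were put among the paralogs after the row names were seen. Genes beyond the 12 (Rps20, Rpl7l1, Rpl28 and Rpl13a) are named because few remained, and some items are not reported here. Positions come from GENCODE release M21 on GRCm38 and promoters from RefSeq on GRCm38.p6. Alternatives were other scalings, filters, DESeq2 1.42.0, limma-voom, a GC and length correction, other thresholds, a replicate block and each library left out.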

Additional observations from a re-analysis of the deposited data

Results flagged for a closer look

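In 6 of 170 groups of 4 libraries, 1 library of a ribosomal protein gene stood far from the other 3, which chance alone gives in about 1 in 20 groups. In ScxKO 4, 4 genes were high: Rpl36al at 77.4 CPM with the others at 71.2 to 71.7, Rpl37 at 200.2 CPM with the others at 176.5 to 179.1, Rps10 at 229.6 CPM with the others at 205.4 to 208.6, and Rps25 at 205.1 CPM with the others at 182.1 to 183.9. In ScxKO 3, Rpl34 was low at 2.76 CPM with the others at 4.10 to 4.30. In ScxWT 3, Rps21 was high at 184.3 CPM with the others at 162.2 to 165.9.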

How the results depend on the processing

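No median and no named gene that was called changed sign under the alternatives run. All 8 libraries with TMM gave 16 members higher (19.05%, against 14.1% of all tested genes) and 1 lower (1.19% against 14.6%). The count of members higher was 3 with upper-quartile scaling, 5 with the replicate block on numbers 2, 3 and 5, 0 with those libraries and no block, 1 at an adjusted p of 0.01, 33 at 0.1, 5 without ScxWT 5 and ScxKO 4, and between 1 and 43 with 1 library left out. The count lower was 2 with GC and length correction, 0 with numbers 2, 3 and 5 and no block, 0 at 0.01, 2 at 0.1, and 0 to 2 with 1 library left out. Over all genes, 2871 were higher with GC and length correction and 1195 at 0.01. Lower were 2234 with GC and length correction, 1237 with numbers 2, 3 and 5 and no block, 1152 at 0.01 and 2438 at 0.1. With 1 library left out, all genes higher ran from 1447 to 2416 and lower from 1432 to 2327. The labels do not say whether the replicate numbers pair the libraries, and weak correlations cannot decide it. Libraries numbered 2, 3 and 5 correlated with their same-numbered partner at -0.06, 0.16 and 0.06. The 0.16 of number 3 was the highest of any ScxKO and ScxWT pair, while ScxKO 2 correlated best with ScxWT 5, at 0.14. The median log2 change was 0.08 with the block and 0.06 with GC and length correction. For single named genes, 474 of 606 alternative values kept their side of the threshold, 118 lost it, 6 gained it and 8 uncalled values, of Rpl32l, Rpl37rt, Rps4l and Rpl39, changed sign and moved by more than their standard error. The changes of 79 of 84 members lay within 0.2 on the log2 scale, smaller than any change in the simulated data.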
